A study of Homo sapiens with 17 samples.

Results

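The mRNAs described here come from 9 genes of the integrated stress response (ISR), out of 18869 genes for which editing values were deposited. They were chosen by gene symbol for their place in the pathway, with earlier results of these data known. ATF4, ATF5, DDIT3, PPP1R15A and PPP1R15B form a group of 5 genes whose mRNAs are known for translational control by upstream open reading frames (uORFs), and DDIT4, TRIB3, ASNS and SESN2 form a group of 4 downstream target genes. All 9 members reached 5 TPM or more in both immunoprecipitations (IPs), so that none was lost to the filter on low values.

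In the ISR, kinases that sense amino acid shortage, double-stranded RNA, haem shortage or unfolded proteins phosphorylate the initiation factor eIF2, which lowers the supply of initiator tRNA to ribosomes and reduces the translation of most mRNAs. Some mRNAs with uORFs in their leaders are then translated better, because ribosomes that would otherwise be captured by an inhibitory uORF reach the main start codon. The best known of them encodes the transcription factor ATF4, which switches on genes for amino acid supply, feedback on the pathway and, under lasting stress, cell death.

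The measurements were made by Ribo-STAMP in HEK293T, a widely used human cell line of embryonic kidney origin. Stable lines made by lentiviral integration carried a doxycycline-inducible construct for either RPS2-STAMP, in which the C-to-U editing enzyme APOBEC1 is fused to the small ribosomal subunit protein RPS2, or Control-STAMP, in which APOBEC1 is expressed alone. Both lines received 50 ng/mL doxycycline for 24 h and were then crosslinked with 0.1% formaldehyde. IPs were made of the nuclear poly(A) binding protein PABPN and of the cytoplasmic poly(A) binding protein PABPC. RNA was sequenced from 9 RPS2-STAMP samples, with 3 for each fraction (Input, PABPN IP, PABPC IP), and from 8 Control-STAMP samples, with 3 Input, 3 PABPN IP and 2 PABPC IP samples. The labels name no stress treatment. The paper describes a cytoplasmic fraction, whereas the labels do not state a fractionation.

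Editing is given as normalized EPKM, the number of edits per length of transcript and per read sequenced, less that of the control condition, and transcript level as average TPM. Each gene has 1 value per fraction, pooled over replicates, and the read depth behind it is unknown. No SD, n or p-value can therefore accompany a value, no difference between fractions has a replicate check, and each count of members is set beside the same share of the 9607 protein-coding genes (PCGs) that reached 5 TPM in both IPs. An EPKM of 0 is called listed at 0, since it may stand for no edits or for editing no higher than the control. Of the HEK293T markers, LIN28B, CDH2, VIM and NEFM had a TPM of 37.7, 14.8, 184 and 9.0 in the Input and PAX2 had 0.797. The muscle marker MYOD1 had a TPM of 1.24, and PTPRC, ALB and INS were not among the genes of the table.

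The leaders of the members are shown first, because the grouping of the members refers to control through them. In the Ensembl canonical transcripts of GENCODE release 44 on hg38, each of the 5 uORF-controlled mRNAs had at least 2 ATG triplets upstream of the annotated start codon. At least 2 were found in 20.6% and at least 1 in 39.7% of 9573 PCGs. ATF4 and DDIT3 had 3 upstream ATGs and ATF5, PPP1R15A and PPP1R15B had 2. In ATF4, ATF5 and DDIT3, 1 of these opens a frame that runs past the main start codon, an arrangement found in 12.5% of PCGs. Among the targets, TRIB3 had 2 upstream ATGs, SESN2 had 1, and ASNS and DDIT4 had none.

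The windows below hold 17 bases of the mature transcripts around start codons of the uORF-controlled members, all upstream ones in 5′ UTRs, and around that of ASNS as a member with no upstream ATG, from GENCODE transcripts and written 5′ to 3′ with the ATG in capitals. The first pair of lines for ATF4 and for ATF5 shows the short uORF and the overlapping uORF, followed by the main start.
ATF4 short uORF: cacggccaccATGgcgt
ATF4 overlapping uORF: ggcttaagccATGgcgc
ATF4 main start: gcaccgcaacATGaccg
ATF5 short uORF: agccccggccATGgctc
ATF5 overlapping uORF: tgctgcagccATGgagt
ATF5 main start: tgctacagccATGtcac
DDIT3 first uORF: tgagcgtatcATGttaa
PPP1R15A second uORF: tgagggtgagATGaacg
PPP1R15B second uORF: ccccgccaggATGgaag
ASNS main start: tcattgcaccATGtgtg

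ATF4 and ATF5, paralogous transcription factors of the bZIP class, had the same layout. In both, a frame of 3 codons was followed by a frame of 59 codons that overlaps the coding sequence in another frame. The ATF4 short uORF starts 196 nt before the main start, in exon 1 (window at chr22:39520638-39520654, plus strand), and the overlapping uORF starts 97 nt before it. In ATF5 these distances were 246 nt (window at chr19:49929264-49929280, plus strand, exon 1) and 124 nt. The ATG of both frames in both mRNAs had a purine 3 bases before it and a G directly after it, the bases known to favour initiation. ATF4 also had an ATG 258 nt before the main start that is followed by a stop after 1 codon.

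DDIT3 encodes CHOP, a transcription factor linked to cell death under stress. Its first uORF, of 34 codons, starts 143 nt before the main start in exon 1 (chr12:57520474-57520490, minus strand). The next ATG lies 134 nt before the main start and opens 31 codons of the same frame, and another lies 32 nt before it and opens a frame of 73 codons that overlaps the coding sequence. PPP1R15A and PPP1R15B encode the inducible and constitutive subunits that direct protein phosphatase 1 to eIF2, and in both mRNAs the frames ended inside the leader. The second frame held 26 codons in PPP1R15A (chr19:48872544-48872560, plus strand, exon 1) and 51 codons in PPP1R15B (chr1:204411636-204411652, minus strand, exon 1). ASNS had the shortest leader of the members, at 117 nt against a PCG median of 134 nt, and its main start lies in exon 3 (chr7:97869150-97869166, minus strand). TRIB3 had the longest, at 410.0 nt, so that leader length did not divide the groups.

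**Figure D1:**
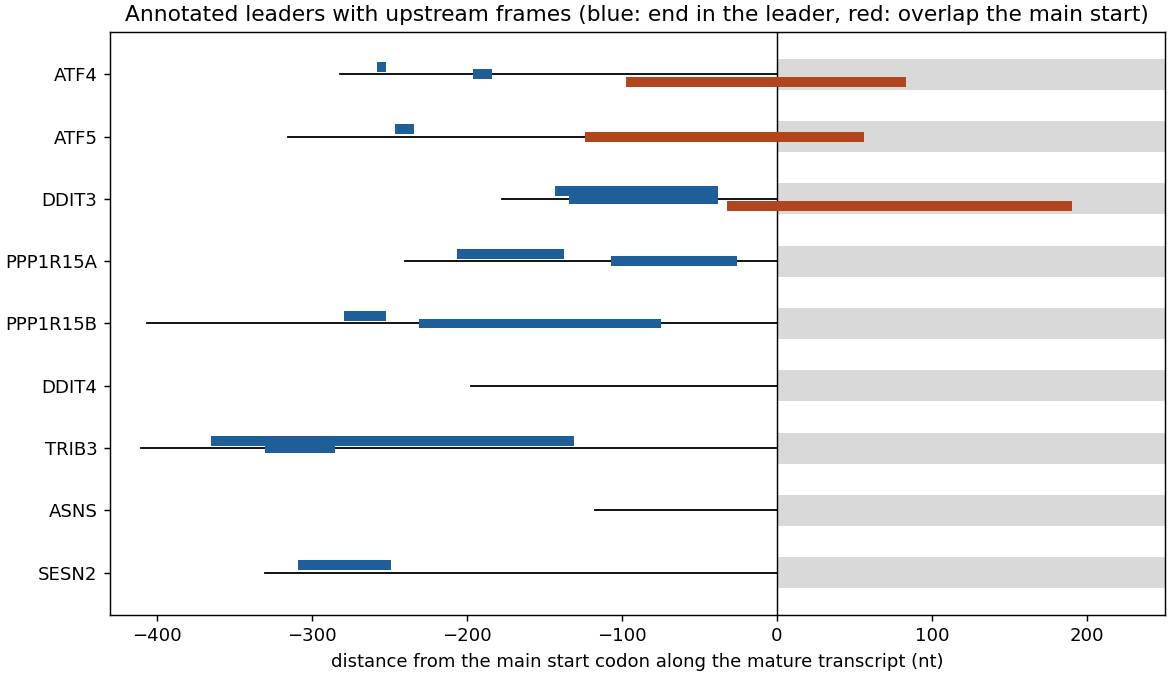
Annotated leaders of the 9 members, drawn in nt from the main start codon at 0. Lines are leaders, grey blocks the first part of the coding sequence, blue bars upstream frames that end in the leader and red bars frames that overlap the main start, which are present in ATF4, ATF5 and DDIT3.

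Upstream ATGs were also set beside editing over all PCGs. The median PABPC IP EPKM was 0.0531 for 5777 PCGs without an upstream ATG, 0.0468 for 2597 PCGs with upstream ATGs but no overlapping frame, and 0.0445 for 1199 PCGs with an overlapping frame. These classes also differed in PABPC IP TPM, with medians of 34.4, 23.4 and 22.8, and in transcript length, with medians of 2774, 4100 and 4011 nt. In the same order, 18.4%, 15.7% and 16.3% were listed at 0 in the PABPC IP, so that this share was highest without an upstream ATG. The part of TPM and of length in the order of the EPKM medians was not tested.

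Among the members, EPKM in the PABPC IP, taken without regard to TPM, divided along the line between the groups. The 4 targets lay between 0.132 and 0.226 EPKM, and the 5 uORF-controlled mRNAs lay between 0 and 0.109, so that the ranges did not overlap. Within deciles of PCGs by PABPC IP TPM the groups did overlap. The uORF-controlled DDIT3 was higher than 93.1% of its decile, and the target SESN2 was higher than 75.9% of its own. The medians were 0.176 for the targets and 0.00814 for the uORF-controlled mRNAs, on either side of the PCG median of 0.0501. All 4 targets and, among the uORF-controlled mRNAs, ATF4 lay above the upper quartile of PCGs, 0.0992. The members of a group are different genes and not replicates, so the separation was not tested. Without ATF5 and PPP1R15A, a choice made after seeing the data, the uORF-controlled minus target difference of medians was -0.0934 EPKM in place of -0.168 in the PABPC IP and -0.00361 in place of -0.0683 in the Input, and for the PABPN IP its sign turned, from -0.0108 to 0.0451. In the Input the groups overlapped, with medians of 0.0834 for the targets and 0.0151 for the uORF-controlled mRNAs beside 0.0273 for PCGs. For the PABPN IP they were 0.0108 and 0, both under the PCG median of 0.0334, and the highest value of either group belonged to the uORF-controlled DDIT3. Taken over the means, the order in the PABPN IP turned, with the uORF-controlled mRNAs at 0.0484 and the targets at 0.0377.

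**Figure D2:**
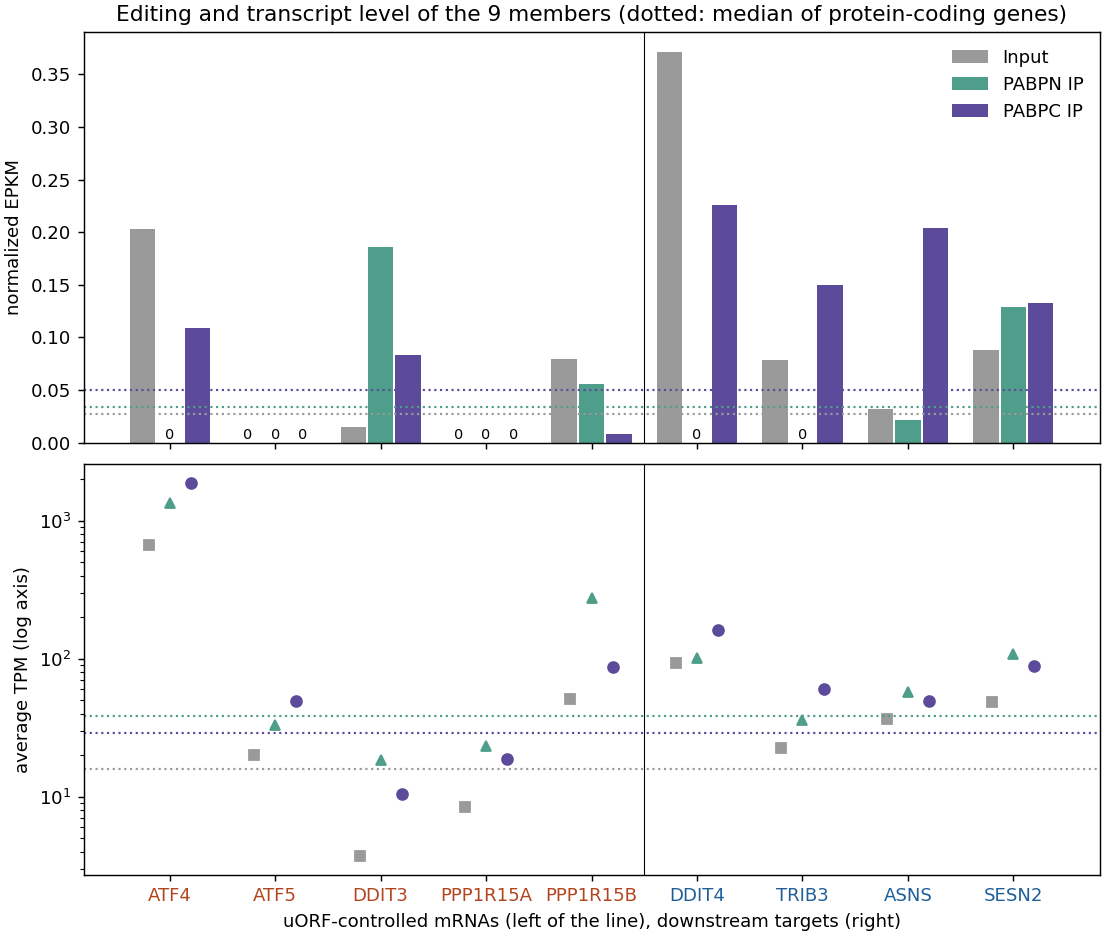
Normalized EPKM (upper panel, bars from 0, with 0 printed where a gene is listed at 0) and average TPM (lower panel, log axis) of each member in the Input, PABPN IP and PABPC IP, with 1 pooled value each and no error. Dotted lines are medians of 9607 PCGs in the same colours. The 4 targets all lie above the PABPC IP median for editing of 0.0501, and ATF5 and PPP1R15A are at 0 in each fraction.

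ATF4 (ENSG00000128272, chr22:39519695-39522683) was by far the most abundant member and among the most abundant mRNAs of the cells. Its TPM was 663.0 in the Input, 1349.8 in the PABPN IP and 1879 in the PABPC IP, the last higher than in 99.4% of PCGs. In EPKM it had 0.203 in the Input and 0.109 with PABPC, and it was listed at 0 with PABPN. In the decile of PCGs with the highest TPM, most of them less abundant than ATF4, the median was 0.177 EPKM for the Input and 0.134 for the PABPC IP. For the PABPN IP the top decile had a median of 0.0629, and 22.9% of it was listed at 0. Processed pseudogenes of ATF4 are in the table, and how reads shared by them and ATF4 were counted was not tested. ATF4P4 reached a TPM of 1.38 in the PABPC IP, and the PABPN IP EPKM of ATF4P3, for which no TPM is given, was 0.216.

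ATF5 (ENSG00000169136, chr19:49928702-49933935) shared the leader layout of ATF4 but not its editing. It was listed at 0 in all 3 fractions at a TPM of 20.2 in the Input, 33.1 in the PABPN IP and 49.8 in the PABPC IP. In its own decile of PCGs by PABPC IP TPM, the median EPKM was 0.0756 and 15.3% were listed at 0. PPP1R15A (ENSG00000087074, chr19:48872212-48876059), which encodes GADD34, the stress-induced subunit that brings about dephosphorylation of eIF2, was the other member listed at 0 throughout. Its TPM was 8.43, 23.1 and 18.8 in Input, PABPN IP and PABPC IP. No editing above the control in any fraction was thus seen for 2 of 9 members, both uORF-controlled, and for 2.07% of PCGs (199 genes).

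DDIT3 (ENSG00000175197, chr12:57516588-57521737) was the least abundant member and the one with the most editing in the PABPN IP. Its TPM was 3.71 in the Input, 18.5 in the PABPN IP and 10.4 in the PABPC IP. In EPKM it had 0.0151 in the Input, 0.0831 with PABPC and 0.186 with PABPN. The last value was higher than in 99.1% of the PCGs in its decile by PABPN IP TPM, whose median was 0.0234. PPP1R15B (ENSG00000158615, chr1:204396492-204411887), which encodes CReP, the constitutive counterpart of GADD34, was edited least in the PABPC IP among the members above 0. Its EPKM was 0.0798 in the Input, 0.0559 in the PABPN IP and 0.00814 in the PABPC IP, at a TPM of 51.1, 274 and 87.4. In its decile by PABPC IP TPM the median was 0.0819, and 18.1% of PCGs lay below PPP1R15B.

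In the PABPC IP each target lay above the median EPKM of the PCGs in its own TPM decile, which ran from 0.0756 for ASNS to 0.107 for DDIT4. Among the uORF-controlled mRNAs only DDIT3 did so, at 0.0831 beside a decile median of 0.0250. It was higher than 93.1% of the PCGs in its decile, and DDIT4, TRIB3 and SESN2 were higher than 90.8%, 82.2% and 75.9% in theirs. DDIT4 (ENSG00000168209, chr10:72273919-72276036) encodes REDD1, an inhibitor of mTORC1 signalling, and had the highest EPKM of the members in both the Input and the PABPC IP, at 0.371 and 0.226, with 0 in the PABPN IP. Its Input value was higher than in 97.6% of all PCGs and in 79.8% of those in its decile by Input TPM. Its TPM was 92.7 in the Input, 102 with PABPN and 162 with PABPC. TRIB3 (ENSG00000101255, chr20:362835-397559) encodes a pseudokinase that restrains ATF4 and CHOP, and its EPKM was 0.0790 in the Input and 0.149 with PABPC, with 0 for PABPN as in DDIT4. The TPM of TRIB3 was 22.6 in the Input, 36.1 with PABPN and 60.1 with PABPC. ASNS (ENSG00000070669, chr7:97851677-97872542) encodes asparagine synthetase, a long-known ATF4 target. Its TPM was 36.6, 57.4 and 49.3 in the same order. In EPKM it had 0.0316 in the Input, 0.0217 in the PABPN IP and 0.204 in the PABPC IP, the last above 96.8% of the PCGs in its decile by TPM. Its pseudogene ASNSP1 is also in the table, at 5.67 TPM and 0.0581 EPKM with PABPN and at 2.98 TPM and 0 EPKM with PABPC. SESN2 (ENSG00000130766, chr1:28259518-28282491) encodes sestrin 2, a leucine-binding regulator of mTORC1, and had close values in both IPs, with 0.132 in the PABPC IP, 0.129 in the PABPN IP and 0.0878 in the Input. Its TPM was 49.0 in the Input, 109 with PABPN and 89.0 with PABPC.

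Editing in the PABPC IP was compared with that in the PABPN IP to ask with which PABP an mRNA had the higher EPKM. EPKM is given per length and per read sequenced and not per transcript copy. A difference between the IPs can therefore hold a difference in transcript level as well as in ribosome contacts. On the log2(EPKM + 0.01) scale, 4 of 9 members were higher by 2-fold or more in the PABPC IP, beside 36.3% of PCGs, and these were ATF4, DDIT4, TRIB3 and ASNS. In the opposite direction, 2 of 9 members, DDIT3 and PPP1R15B, were higher by 2-fold or more in the PABPN IP, beside 21.1% of PCGs. Both shares lay near those of PCGs at this pseudocount. DDIT3 and PPP1R15B also had the higher TPM in the PABPN IP, at 18.5 against 10.4 and 274 against 87.4 in the PABPC IP. ATF4, DDIT4 and TRIB3 had the higher TPM in the PABPC IP, and ASNS did not. The part of transcript level in these calls was not tested. By group, 3 of 4 targets and 1 of 5 uORF-controlled mRNAs were called toward the PABPC IP, and none of the targets and 2 of 5 uORF-controlled mRNAs toward the PABPN IP. The log2 difference was 2.75 for ASNS, -1.08 for DDIT3, -1.86 for PPP1R15B and 0.03 for SESN2. No fold is given for ATF4, DDIT4 and TRIB3, which are listed at 0 in the PABPN IP. The comparison with PCGs depends on the pseudocount: at 0.1, 4 of 9 members and 9.0% of PCGs were called toward the PABPC IP, and 0 of 9 members and 3.71% of PCGs toward the PABPN IP.

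ATF4, DDIT4 and TRIB3 shared a pattern of editing above 0 in the Input and PABPC IP and at 0 in the PABPN IP. It was found in 3 of 9 members and in 15.6% of PCGs. Of the 100 PCGs with the highest PABPN IP TPM, a group chosen after the values were seen, 31 were listed at 0 there, ATF4 among them, beside 27.1% of all 9607 PCGs.

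**Figure D3:**
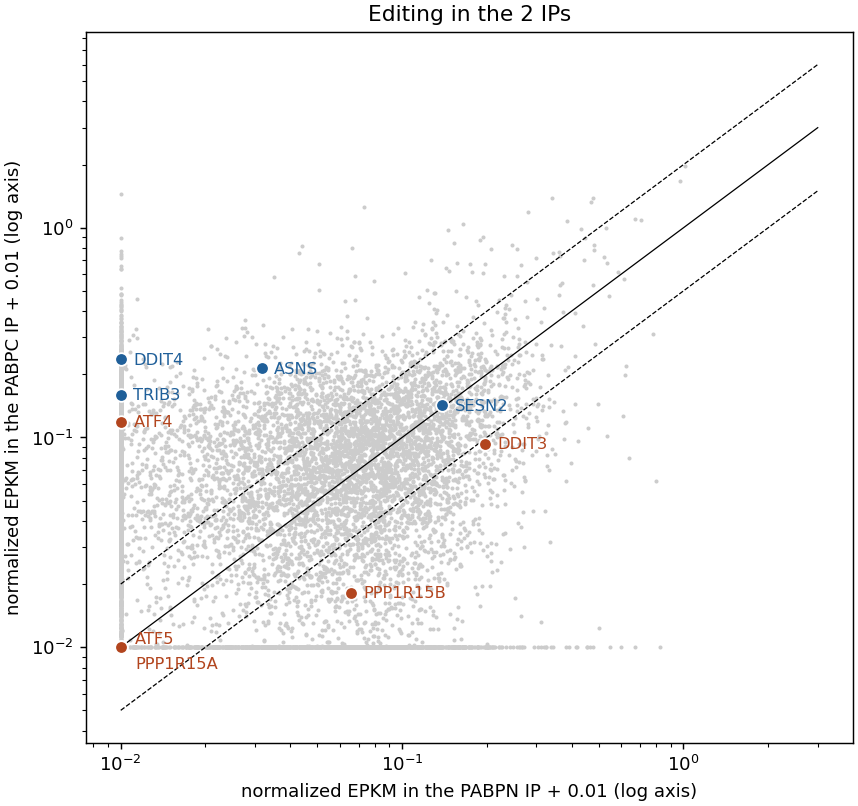
Normalized EPKM + 0.01 in the PABPN IP and in the PABPC IP, both on log axes, for 9607 PCGs (grey) with uORF-controlled members in red and targets in blue. The solid line marks equal values and dashed lines 2-fold differences. ATF4, DDIT4 and TRIB3 lie on the left edge, which holds genes listed at 0 in the PABPN IP, and ATF5 and PPP1R15A share the corner at 0 in both.

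Transcript levels in the IPs were compared with the Input to ask which PABP each mRNA was recovered with. Over PCGs the median log2 TPM ratio was 1.14 for the PABPN IP to the Input, 0.99 for the PABPC IP to the Input and -0.19 for the PABPC IP to the PABPN IP. Ratios of the members are given after subtraction of these medians. In the PABPN IP, DDIT3 and PPP1R15B were more than 0.5 above the PCG median, at 1.18 and 1.29 (2 of 9 members, 24.5% of PCGs), and DDIT4 was more than 0.5 below it, at -0.998 (1 of 9 members, 21.6% of PCGs). PPP1R15B lay above 96.1% of PCGs and DDIT4 above 5.18%. In the PABPC IP, ATF4 was called higher at 0.51 (1 of 9 members, 8.37% of PCGs) and ASNS lower at -0.56 (1 of 9 members, 18.1% of PCGs). DDIT3, at 0.50, fell just short of the threshold. Without the centring, 8 of 9 members were past 0.5 above the Input in each IP and none was below, and 84.6% of PCGs were above in the PABPN IP and 81.3% in the PABPC IP, so that lower here means lower relative to other PCGs and not in TPM.

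In the direct ratio of the PABPC IP to the PABPN IP, more members and more PCGs were called than in either ratio to the Input. ATF4, ATF5, DDIT4 and TRIB3 were called toward the PABPC IP, at 0.67, 0.78, 0.86 and 0.93 (4 of 9 members, 30.4% of PCGs). DDIT3 and PPP1R15B were called toward the PABPN IP, at -0.63 and -1.46 (2 of 9 members, 31.5% of PCGs). ASNS, SESN2 and PPP1R15A lay within 0.5 of the PCG median, at -0.02, -0.10 and -0.10. Without the centring, 3 of 9 members (ATF5, DDIT4 and TRIB3) and 23.0% of PCGs were called toward the PABPC IP, and DDIT3 and PPP1R15B with 37.6% of PCGs toward the PABPN IP. TPM and EPKM come from the same series of libraries, and the part of transcript recovery in the editing values was not tested.

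**Figure D4:**
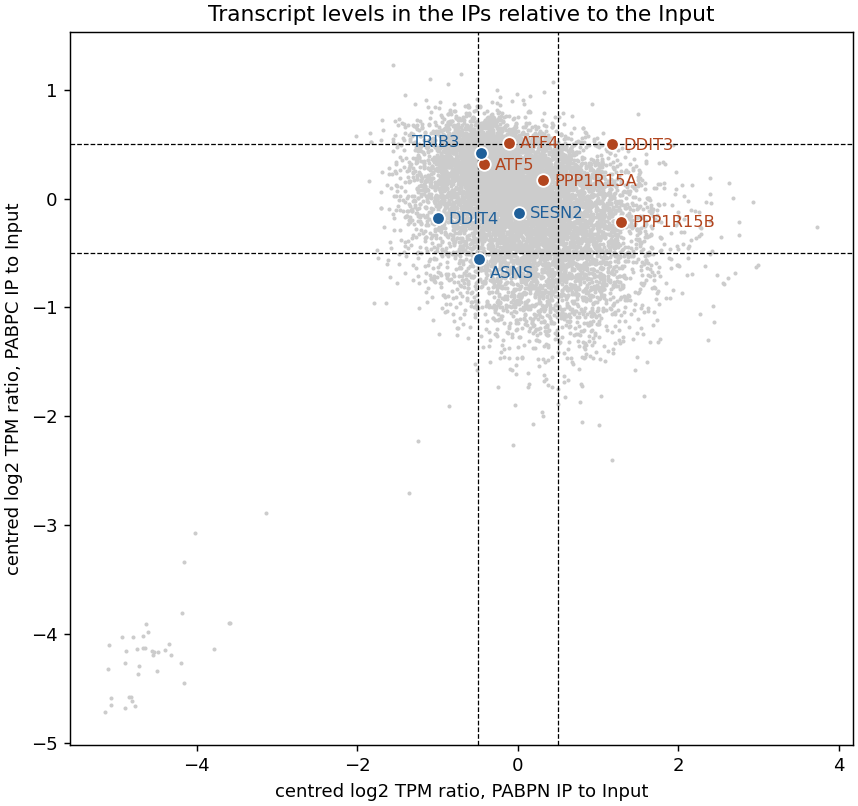
Centred log2 TPM ratio of the PABPN IP to the Input and of the PABPC IP to the Input for 9607 PCGs (grey), with uORF-controlled members in red and targets in blue. Dashed lines mark 0.5 in either direction. DDIT3 and PPP1R15B lie to the right at 1.18 and 1.29 and DDIT4 to the left at -0.998.

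Neighbouring genes limit how far some values belong to the member alone. The spans of other genes in GENCODE release 44 cover all exonic bases of the canonical transcripts of ATF5 (the protein-coding genes NUP62 and IL4I1 among others) and PPP1R15B (lncRNAs), 99.5% of those of ASNS (a lncRNA and a processed pseudogene) and 95.6% of those of DDIT3 (MARS1 and MBD6 among others). Such cover of at least 95% was found in 10.3% of 9605 PCGs. Genes on either strand were counted. Those over PPP1R15B all lie on the opposite strand, as do those over ATF5 apart from a miRNA, and MARS1 and MBD6 at DDIT3. On the same strand as the member lie the protein-coding gene ENSG00000285133 and a miRNA at DDIT3, and the lncRNA at ASNS. ATF4, DDIT4, PPP1R15A, SESN2 and TRIB3 had no exonic base in the span of another gene, as did 53.5% of PCGs. The authors removed overlapping regions before counting TPM, in an older release. Removal of all spans shared in release 44, on either strand, would leave little or none of the exonic sequence of ATF5, PPP1R15B, ASNS and DDIT3. The paper names a stranded library kit, but whether edits were counted by strand is not given in the sources used here. It is thus not known on which bases the values of these 4 members rest. PPP1R15A, like ATF5 listed at 0 throughout, had no such overlap.

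The promoters of the members were searched for TGATGNAAN, a form of the element bound by ATF4 together with C/EBP proteins, on both strands of 300 bases from 250 before to 50 after the start in RefSeq on GRCh38.p14. It was present in 2 of 9 members, ASNS and PPP1R15B, and in 4.45% of 27305 genes. The matches are shown with their flanks, 5′ to 3′ on the strand of the gene, with the match in capitals.
ASNS: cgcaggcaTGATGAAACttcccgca
PPP1R15B: gccccggcTGATGCAACctcacgct
The ASNS match begins at position -68 (chr7:97872468-97872476) and the PPP1R15B match at -227 (chr1:204412036-204412044), both upstream of the transcript on the minus strand. A match is a description of the letters in this window, and no binding was measured here.

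Genes with values most like those of ATF4 were found by the distance over the 3 EPKM and 3 TPM values, each on a log2 scale and divided by its SD over PCGs. The nearest were MAZ, PRELID1 and HDGF, at distances of 0.593, 0.715 and 1.03 beside a median of 6.85 over 9606 PCGs. All 3 were at 0 in the PABPN IP, with PABPC IP EPKM of 0.138, 0.0982 and 0.111. Both values enter the distance, so likeness to ATF4 in them follows from how the genes were chosen. For ASNS the nearest were CABLES1, METAP1 and LLGL1, at 0.535, 0.540 and 0.549 beside a median of 2.65. Their PABPC IP EPKM of 0.144, 0.164 and 0.167 lay below the 0.204 of ASNS.

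Other genes of the pathway were taken as lists, and those of their PCGs that reached 5 TPM in both IPs are described. Their EPKM was not set beside that of PCGs of like TPM, so the part of TPM in differences between lists was not tested. Calls in each list are by 2-fold in EPKM and stand beside 36.3% of PCGs toward the PABPC IP and 21.1% toward the PABPN IP. The eIF2 kinases and GCN1, which activates one of them, had a median PABPC IP EPKM of 0.0758, and 3 of 5 were called toward the PABPC IP and 1 of 5 toward the PABPN IP. GCN1 and EIF2AK4 (GCN2), the amino acid sensing pair, had the highest PABPC IP values at 0.178 and 0.106, and EIF2AK3 (PERK) and EIF2AK1 (HRI) the lowest at 0.0185 and 0.0115. The 8 subunits of eIF2 and its exchange factor eIF2B had a median of 0.0493, with 1 of 8 called toward the PABPC IP and 2 of 8 toward the PABPN IP. EIF2S3 and EIF2S2 were highest, at 0.146 and 0.0978. EIF2B4 had 0.0270, and EIF2B1 was listed at 0 in the PABPC IP with 0.546 in the Input.

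Other mRNAs known for uORFs had a higher PABPC IP median than the uORF-controlled members. It was 0.0945 over 6 of the 7 genes listed, all above 0, with SLC35A4 and UCP2 at 0.177 and 0.169 and IFRD1 and IBTK at 0.0808 and 0.0616. The PABPC IP TPM of these 4 was 266, 178, 35.0 and 14.2, beside a median of 49.8 for the uORF-controlled members. Of the 6 genes in this list, 3 were called toward the PABPC IP and 0 toward the PABPN IP. Upstream ATGs were found in 5 of 6, beside 39.7% of PCGs, and an overlapping frame in 0 of 6, beside 12.5%. The other ATF4 targets had a median between those of the 4 target members and of PCGs. It was 0.0806 over 21 of the 26 genes listed, and 10 of 21 were called toward the PABPC IP and 2 of 21 toward the PABPN IP. XPOT, which exports tRNA from the nucleus, and MTHFD2, a mitochondrial folate enzyme, had 0.250 and 0.198. PSAT1, an enzyme of serine synthesis, and ATF3, a stress-induced transcription factor, were listed at 0 in the PABPC IP with 0.125 and 0.0354 in the PABPN IP.

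The catalytic subunits of protein phosphatase 1, with which PPP1R15A and PPP1R15B act, had a higher EPKM than either regulatory subunit in the PABPC IP. The PABPC IP TPM of PPP1CB, PPP1CC and PPP1CA was also higher, at 110, 331 and 342. It was 18.8 for PPP1R15A and 87.4 for PPP1R15B, and the part of TPM in the EPKM difference was not tested. PPP1CB, PPP1CC and PPP1CA had an EPKM of 0.278, 0.216 and 0.153 in the PABPC IP, and 2 of 3 were called toward the PABPC IP and 0 of 3 toward the PABPN IP. Relatives of the members had a median of 0.0472 over 8 genes, with ATF2 and ATF7 at 0.176 and 0.0794, ATF6 at 0.00773 and DDIT4L listed at 0. Of these, 2 of 8 were called toward the PABPC IP and 3 of 8 toward the PABPN IP. Genes of the unfolded protein response outside the eIF2 arm had a median of 0.0850 over 8 of the 9 genes listed, with 4 of 8 called toward the PABPC IP and 2 of 8 toward the PABPN IP. The endoplasmic reticulum proteins CALR and SDF2L1 had 0.237 and 0.195, and HERPUD1, of the degradation pathway, and DNAJB9 had 0.0226 and 0.

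**Figure D5:**
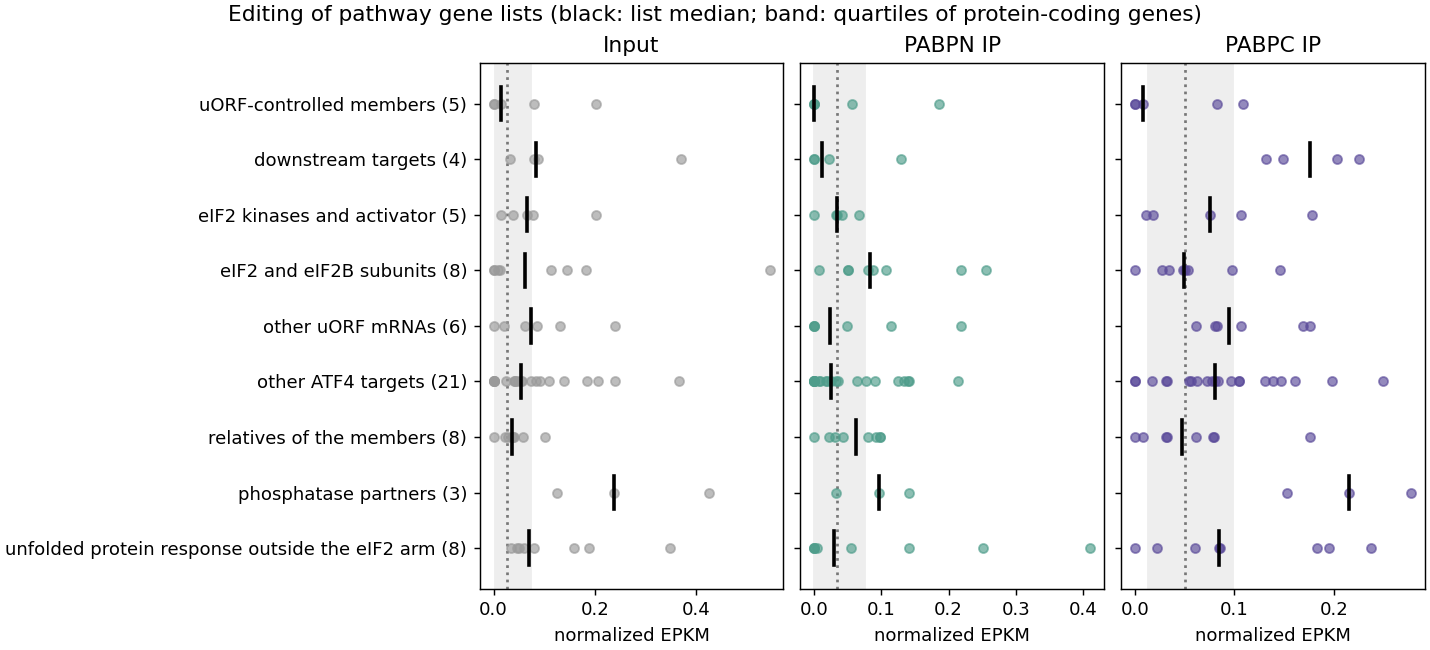
Normalized EPKM of each gene in the pathway lists in the Input, PABPN IP and PABPC IP, with the number of genes in parentheses, list medians as black bars, PCG medians as dotted lines and PCG quartiles as grey bands. In the PABPC IP panel the 4 targets lie above the band and the median of the uORF-controlled members, 0.00814, lies below it.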

How the data were processed

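Per the labels, 17 samples were assigned to Input, PABPN IP or PABPC IP of RPS2-STAMP or Control-STAMP. Reads had been aligned to hg38 with STAR and counted with featureCounts 2.0.2 (submitters' processing notes). The normalized EPKM deposited by the authors is a signal of C-to-U edits minus the control, with no value below 0. How replicates were pooled is not stated. The deposited TPM are the authors' averages per fraction, exonic and intronic added, and which samples entered is not stated. The paper gives a minimum and a mean of reads for its STAMP libraries together, and the depth of each sample and the reads behind each value are unknown.

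Computed here were log2(EPKM + 0.01) differences, with 2-fold as a call, and log2 TPM ratios centred on PCGs, with 0.5 as a call. Each member was set beside the decile of PCGs by TPM that holds it. The members and lists were chosen with earlier results of these data known. From each list the 2 genes with the highest and the 2 with the lowest PABPC IP EPKM are named. Transcripts came from GENCODE release 44. The code that makes the calls was tested on simulated data without noise, which gives no error for a call. Python 3.11.15, NumPy 2.4.6, pandas 2.3.3 and matplotlib 3.10.9 were used. Alternatives changed the pseudocount, thresholds, centring, grouping and gene set.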

Additional observations from a re-analysis of the deposited data

How the results depend on the processing

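No paired analysis was possible because every value is pooled over the replicates. The number of reads and edits behind each value is unknown, so small EPKM differences have no known error. A value within 1.5-fold was counted as unmoved, where a median log2 TPM ratio was judged by the fold between the ratios themselves and not between their logs. This held for 39 of 58 values under the alternatives, among them every share of PCGs called among the 13025 PCGs with TPM above 0 in both IPs, or the 13017 of them with Input TPM above 0 for ratios to the Input. The cause of the changes below was not tested unless the setting itself shows it.

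The difference of median EPKM between uORF-controlled mRNAs and targets in the PABPN IP (-0.0108) reversed to 0.0107 with means and was -0.0217 without TRIB3. In the Input (-0.0683) it was -0.0402 without DDIT4 and SESN2. Leaving out ATF5 and PPP1R15A, chosen after seeing the data, gave -0.00361 (Input), -0.0934 (PABPC IP) and a reversed 0.0451 (PABPN IP). The PABPC IP difference (-0.168) stayed below 0 in each of these settings. The mean EPKM of the members in the PABPN IP was 0.0437 against a median of 0. With a pseudocount of 0.1 the 2 members higher in the PABPN IP became 0, and the share of PCGs went from 21.1% to 3.71%. In the other direction the members stayed at 4 of 9 while the share of PCGs went from 36.3% to 9.0%.

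Without centring, the median log2 TPM ratio of the members to the Input reversed from -0.11 to 1.03 in the PABPN IP and moved from 0.17 to 1.16 in the PABPC IP, and members past 0.5 became 8 higher and 0 lower in each IP. With a threshold of 1, members lower than the Input in the PABPN IP became 0, those in the PABPC IP became 0 higher and 0 lower, and between the IPs 0 were called toward the PABPC IP and 1 toward the PABPN IP. Members higher than the Input in the PABPN IP stayed at 2 of 9 while the share of PCGs went from 24.5% to 8.86%. The other shares of PCGs past 1 were 5.15% lower than the Input in the PABPN IP, 0.0520% higher and 4.42% lower in the PABPC IP, and 12.7% toward the PABPC IP and 17.4% toward the PABPN IP.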
